A study of Mus musculus with 2 samples.

Results

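Glycolysis was followed through 10 genes in single-cell RNA sequencing of CD45+CD11b+ cells from the mouse cerebral cortex. They encode enzymes from the trapping of glucose to the making of lactate, namely Hk2, Pfkl, Pfkp, Aldoa, Tpi1, Gapdh, Pgk1, Pgam1, Pkm and Ldha. The genes were chosen by symbol, and all 10 were found among the 55357 genes listed in each library. The symbol Aldoa stands on 2 rows, and the row of ENSMUSG00000030695 was used, since the other held 1 wild-type and 6 knockout UMIs.

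The study compared 1 library from wild-type mice with 1 library from Msn knockout mice, both 8 weeks old. Msn encodes moesin, a protein that ties the plasma membrane to the actin cortex. The cortices of 5 to 6 mice of a genotype were pooled before sorting, so each genotype is 1 sample, no replicate check exists, and no p-value is given. The knockout is described as on C57BL/6. For the wild-type mice no strain was found in the labels, nor for either genotype a sex, and which part of Msn is deleted is likewise not stated there.

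Levels are unique molecular identifiers (UMIs) summed over the cells of a class and divided by the class total, as CPM (counts scaled to a common total). A transcript is taken to give about 1 tag at its 3′ end whatever its length, so levels of different genes were compared without division by length. Whether tags from inside long genes add to their levels was not tested. Brackets hold exact 95% intervals, which cover counting error only and not differences between mice, sorts or libraries. Classes were gated by marker genes: microglia by P2ry12 and Tmem119, monocytes by Ace or Ly6c2, border macrophages by Mrc1 and Pf4, and natural killer (NK) cells by Ncr1 and Nkg7. A barcode that met more than 1 gate was set aside as mixed.

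Among 5577 kept wild-type barcodes, 5034 were microglia, 48 monocytes, 25 border macrophages and 0 NK cells. Among 7573 kept knockout barcodes, 4663 were microglia, 542 monocytes, 136 border macrophages and 44 NK cells. Mixed barcodes were 4.32% of the wild-type and 14.1% of the knockout barcodes. Microglia held 60496016 UMIs in the wild-type and 37243795 UMIs in the knockout library, with medians of 7273 and 5625 UMIs per cell. The smallest classes held far fewer, with 117910 UMIs in wild-type border macrophages and 214727 UMIs in knockout NK cells. The lists of the libraries shared 13 barcodes.

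In each class that held cells, all 8 markers listed for that class, none of them a gate gene, were detected. Detection alone does not tell classes apart, since microglia of both libraries also had all 8 monocyte and all 8 border macrophage markers. A class's own list summed to 8624 CPM in wild-type and 7184 CPM in knockout monocytes, and to 50087 CPM in knockout NK cells. In border macrophages it summed to 5445 and 4292 CPM. The microglia list summed to 5133 CPM in knockout border macrophages, above their own list. The 8 microglia markers summed to 23935 CPM in wild-type and 24336 CPM in knockout microglia. Several marker lists of other cells summed higher in knockout microglia, with all 6 neutrophil markers at 17.8 and 222 CPM in sum, all 5 erythroid markers at 87.3 and 671 CPM, and the 5 choroid plexus markers at 1.19 CPM (3 detected) and 80.9 CPM (5 detected). The 8 monocyte markers summed to 14.9 and 84.3 CPM in the same cells. Other lists summed lower there, with the 5 astrocyte markers at 195 and 153 CPM, the 8 border macrophage markers at 249.7 and 209 CPM, the 5 oligodendrocyte markers at 62.1 and 58.6 CPM and the neuron markers (4 of 5 detected) at 0.661 and 0.376 CPM. Mitochondrially encoded genes took a median of 1.40% of UMIs in wild-type and 0.472% in knockout microglia. Msn stood at 322 CPM in wild-type and 20.7 CPM in knockout microglia. Whether the tags that remained lie outside the deleted part could not be told.

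Glycolysis splits glucose into pyruvate in the cytosol and yields ATP without oxygen, and lactate dehydrogenase turns pyruvate into lactate while restoring the cofactor that Gapdh uses. Hexokinase and phosphofructokinase hold the early control points, each with several isoforms that differ between tissues. Microglia, the resident macrophages of the brain, are known to lean more on glycolysis when they are activated, and many genes of the pathway are known targets of the hypoxia-inducible factor HIF-1, which binds the core motif ACGTG or GCGTG.

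The RefSeq promoter table, of build GRCm38.p6, held 14 start sites for the 10 genes, and the 250 bases before each were found once in GRCm39. ACGTG, read on both strands, stood before at least 1 start site of 6 of the 10 genes, and in 16.6% of the 32851 promoters of the table. By gene, 18.5% of 27025 genes had ACGTG in at least 1 promoter. GCGTG stood before a start site of 5 of the 10 genes, in 28.2% of all promoters, and by gene in 30.9% of genes. The genes with ACGTG were Hk2, Aldoa, Pgk1, Pgam1, Pkm and Ldha. Tpi1 had neither motif, and Pfkl, Pfkp and Gapdh had GCGTG alone. The matches are letters in a window, and binding was not measured.

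The promoters of 4 members are printed for their spread of motifs and of response, with the first base farthest from the start and both motifs in capitals, on either strand. Ldha (chr7:46494978-46495227 of GRCm39, plus strand) had the most ACGTG among the 10, with 5 matches over both strands, of which overlapping pairs form CACGTG. Pgk1 (chrX:105230456-105230705, plus strand) had 2 matches. Gapdh (chr6:125142737-125142986, minus strand) had no ACGTG and 2 matches to GCGTG. Hk2 (chr6:82751436-82751685, minus strand) had 2 matches to ACGTG.
Ldha: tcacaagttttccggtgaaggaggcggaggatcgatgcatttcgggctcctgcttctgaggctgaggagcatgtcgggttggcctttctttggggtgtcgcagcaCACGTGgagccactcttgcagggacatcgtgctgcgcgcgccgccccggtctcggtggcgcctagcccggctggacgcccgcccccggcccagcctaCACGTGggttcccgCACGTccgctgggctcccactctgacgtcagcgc
Pgk1: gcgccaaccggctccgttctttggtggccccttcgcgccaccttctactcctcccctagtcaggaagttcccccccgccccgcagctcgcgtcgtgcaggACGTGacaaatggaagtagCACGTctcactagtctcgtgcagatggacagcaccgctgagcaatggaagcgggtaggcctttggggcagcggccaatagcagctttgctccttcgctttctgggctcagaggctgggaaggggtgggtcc
Gapdh: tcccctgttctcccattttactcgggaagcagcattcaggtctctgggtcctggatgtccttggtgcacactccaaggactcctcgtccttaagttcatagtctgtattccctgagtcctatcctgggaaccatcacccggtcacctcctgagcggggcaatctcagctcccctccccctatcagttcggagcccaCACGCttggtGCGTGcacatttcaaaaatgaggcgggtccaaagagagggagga
Hk2: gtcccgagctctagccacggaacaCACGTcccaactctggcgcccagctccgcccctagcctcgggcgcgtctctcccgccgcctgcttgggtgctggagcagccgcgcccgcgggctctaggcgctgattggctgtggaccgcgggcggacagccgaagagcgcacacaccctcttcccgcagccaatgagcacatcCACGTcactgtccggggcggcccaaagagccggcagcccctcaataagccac
The spans of the genes in GRCm39 run from 3.73 kb for Tpi1 (chr6:124787549-124791273, minus strand) to 69.2 kb for Pfkp (chr13:6629798-6698970, minus strand), and Pgk1 is X-linked (chrX:105230706-105247305, plus strand).

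The first question was how much of each enzyme's RNA microglia carried and how the libraries differed. In knockout microglia the CPM of each of the 10 genes was higher, with the interval of the ratio above 1, by the least for Hk2. At these depths counting intervals are narrow, and the share of all genes with such an interval is not given here. Pfkp rested on 35 and 49 UMIs. For 2 of the 10 genes the direction turned in subsets of cells. Hk2 stood at 273 CPM in wild-type and 264 CPM in knockout cells without Hspa1a or Hspa1b UMIs, and its ratio was under 1 in 2 of the depth bands given below, while Pfkp had a relative log2 ratio of -1.55 in cells without markers of other cells. The summed level of the 10 genes was 1572 CPM (1562 to 1582) in wild-type and 2380 CPM (2364 to 2396) in knockout microglia, a ratio of 1.51 (1.501 to 1.528). Gapdh made up the largest part, and without it the sums were 1142 and 1485 CPM, a ratio of 1.30 (1.29 to 1.32).

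Hk2 encodes hexokinase 2, which traps glucose as glucose 6-phosphate. Its level was 284 CPM in wild-type and 293 CPM in knockout microglia, the smallest ratio of the 10 at 1.03 (1.01 to 1.06). Pfkl and Pfkp encode the liver-type and platelet-type phosphofructokinase, which commits the sugar to glycolysis. Pfkl stood at 73.6 and 88.3 CPM, a ratio of 1.20. Pfkp stood at 0.579 CPM (35 UMIs) and 1.32 CPM (49 UMIs), close to absent in both libraries. Hk2 ranked second of the 10 by level in each library, in knockout microglia with an interval overlapping that of Aldoa, and Pfkp ranked last.

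Aldolase A, made from Aldoa, splits the sugar, and triosephosphate isomerase, made from Tpi1, interconverts its products. Aldoa stood at 219 CPM in wild-type and 290 CPM in knockout microglia, a ratio of 1.32. Tpi1 stood at 122 and 156 CPM, a ratio of 1.28. Both ratios were larger than that of Hk2 and smaller than those of the later steps.

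The payoff steps came next. Gapdh, which oxidises glyceraldehyde 3-phosphate, stood at 430 CPM in wild-type and 895 CPM in knockout microglia, a ratio of 2.08 (2.05 to 2.12). It was the most abundant of the 10 in every class of both libraries. Pgk1, the kinase that makes ATP in the following step, stood at 53.7 and 77.4 CPM, a ratio of 1.44, and Pgam1, the mutase after it, stood at 102 and 144 CPM, a ratio of 1.42.

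Pkm encodes the muscle-type pyruvate kinase, whose splice forms cannot be told apart here. It stood at 166 and 239 CPM, a ratio of 1.44. Ldha, the lactate dehydrogenase subunit that favours lactate, stood at 120 and 196 CPM, a ratio of 1.63 (1.57 to 1.68). In order of level, Tpi1 and Ldha were the only neighbours with overlapping intervals in wild-type microglia, and Hk2 and Aldoa the only such neighbours in knockout microglia.

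**Figure D1:**
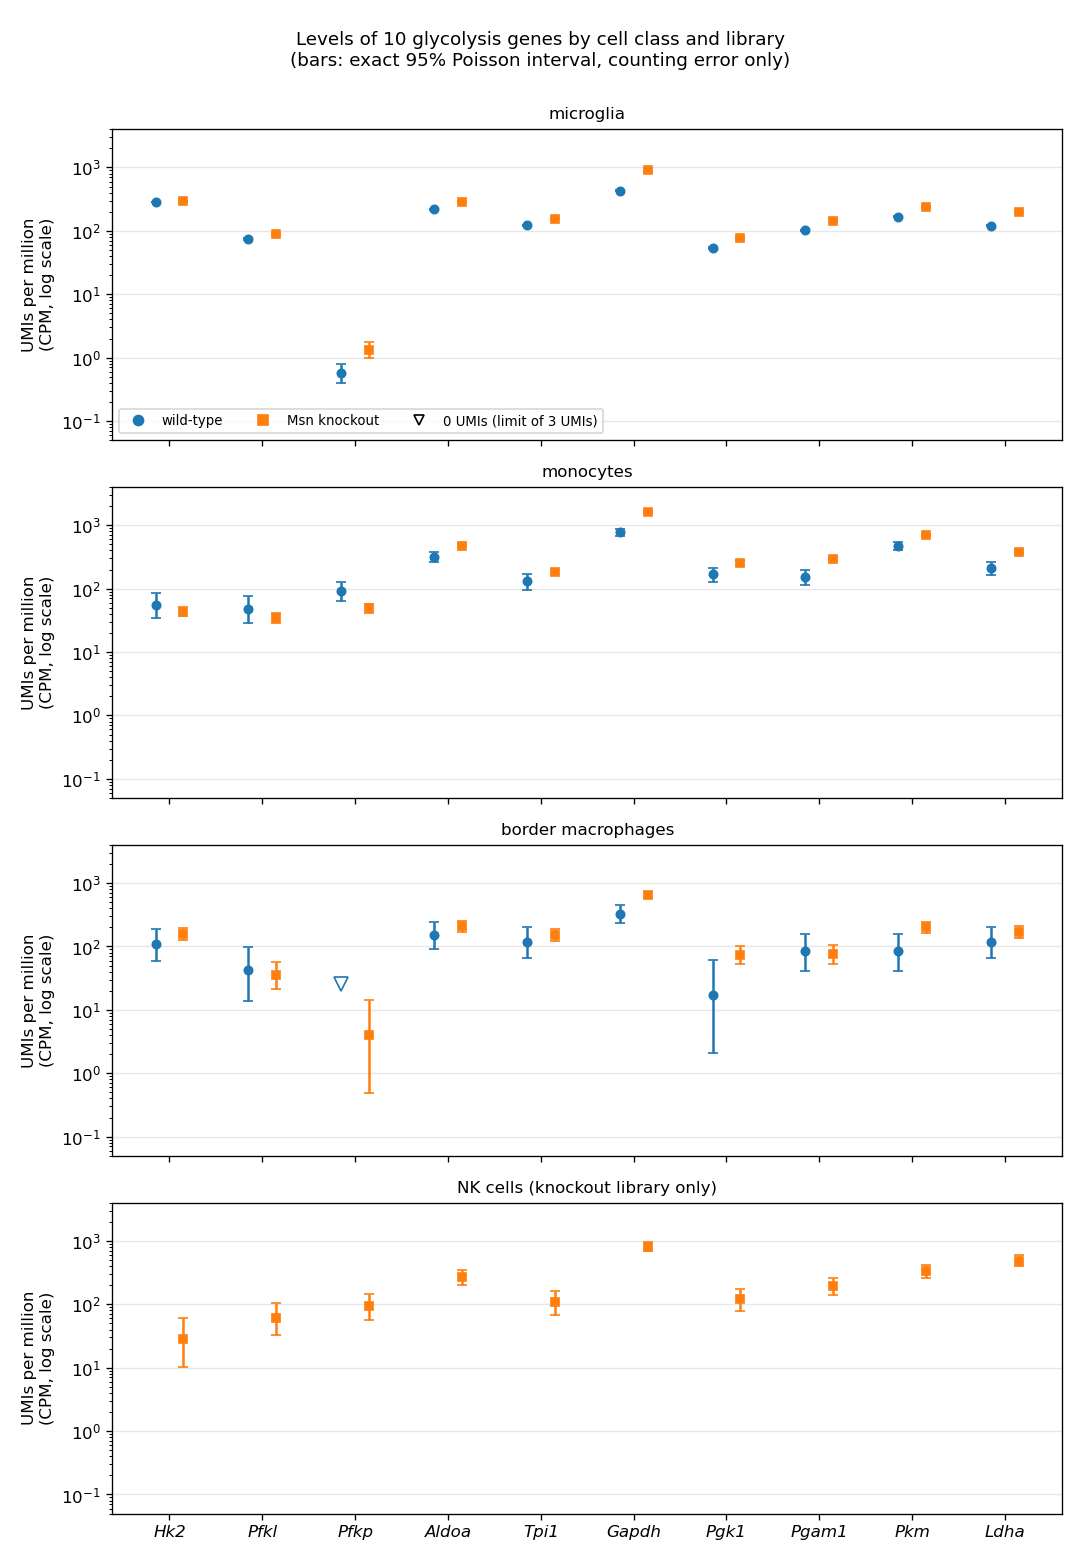
Levels of the 10 genes in CPM on a log axis, by class (panels) and library (circles wild-type, squares Msn knockout), with exact 95% Poisson intervals for counting error; an open triangle marks 0 UMIs, drawn at the level of 3 UMIs. Gapdh is highest in every panel, Pfkp stands near 1 CPM in microglia and at 48.7 to 93.1 CPM in monocytes and NK cells, and Hk2 is highest in microglia.

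The CPM scale depends on what the rest of the library holds. Over the 8721 genes that reached 10 CPM in either library, called measured here, the median log2 ratio of knockout over wild-type microglia was -0.30. Ratios were therefore also taken relative to that median, and calls rest on size only, with 1.5-fold as the limit. On the relative scale 7 of the 9 members measured were higher and 0 were lower, beside 15.4% of all measured genes higher and 12.5% lower. The 7 were Aldoa, Tpi1, Gapdh, Pgk1, Pgam1, Pkm and Ldha. As plain CPM ratios, those of Gapdh and Ldha passed the limit (2 of 9 higher) and 0 were lower, beside 4.83% and 30.6% of all measured genes. Pfkp was below the limit of 10 CPM and was not counted.

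On the relative log2 scale Gapdh differed most at 1.36 (1.33 to 1.38), above 99.1% of measured genes, followed by Ldha at 1.00 (0.95 to 1.046), above 97.2%. Pgk1 stood at 0.82, Pkm at 0.82 and Pgam1 at 0.80. Aldoa at 0.70 and Tpi1 at 0.65 were closer to the limit of 0.58. Pfkl at 0.56 and Hk2 at 0.34 were under it. The median of the 9 was 0.80, against 0 for all measured genes by construction.

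**Figure D2:**
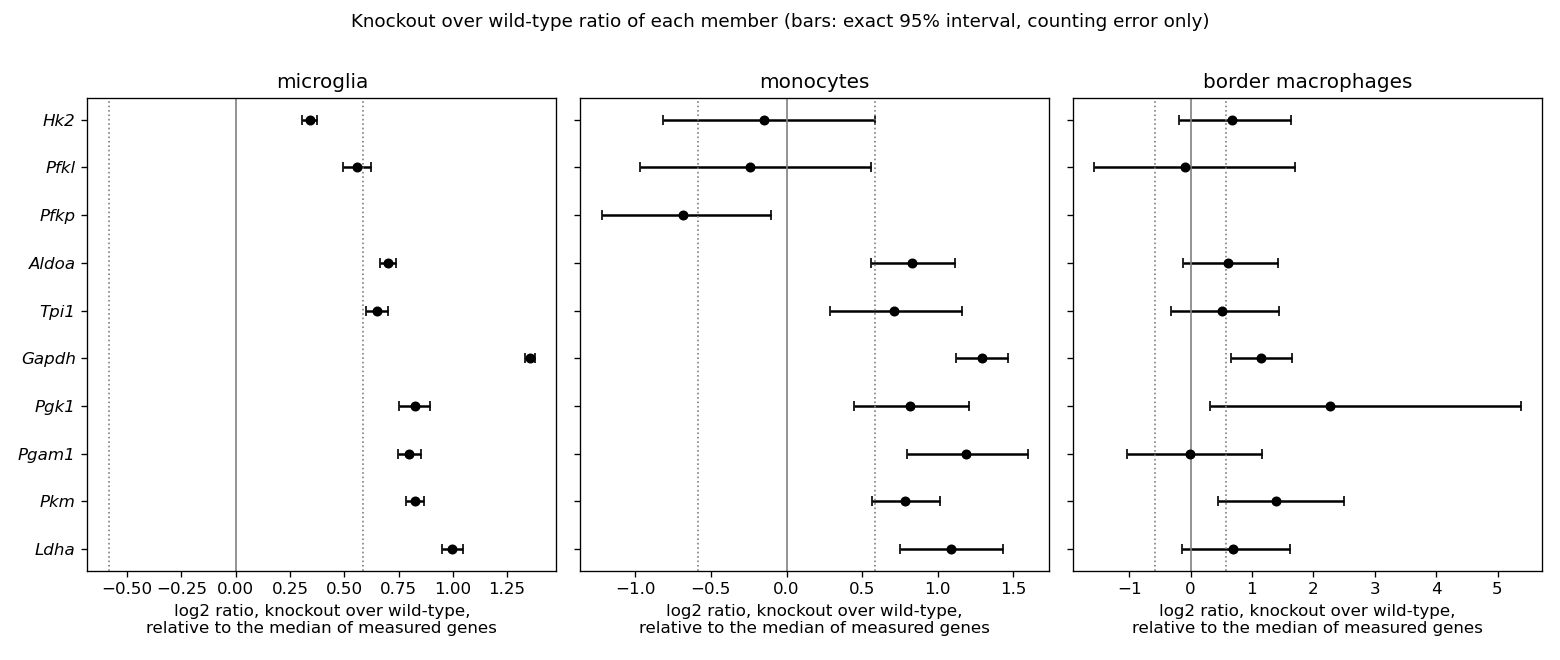
Log2 ratio of knockout over wild-type for each gene, relative to the median of the genes measured in the class, with exact 95% intervals; dotted lines mark 1.5-fold. In microglia all 9 measured genes lie right of 0, from 0.34 for Hk2 to 1.36 for Gapdh. In monocytes Hk2 (-0.15), Pfkl (-0.24) and Pfkp (-0.68) lie left of 0. In border macrophages Pfkl (-0.08) and Pgam1 (-0.01) do, and intervals there are wide.

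**Figure D3:**
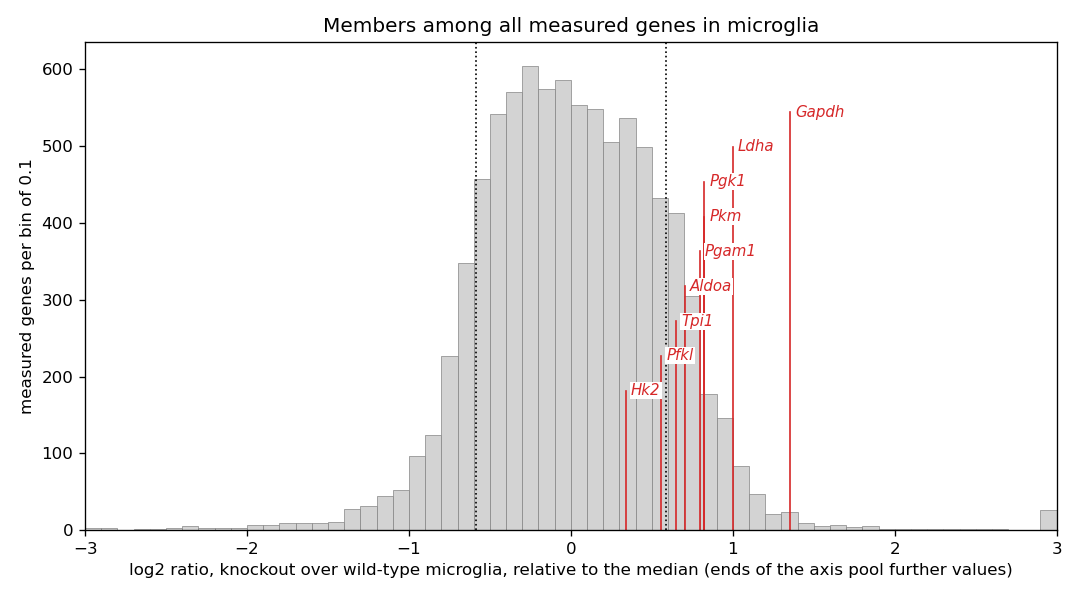
Number of genes per bin of 0.1 in relative log2 ratio for the 8721 genes measured in microglia (grey bars), with the 9 measured members as red lines and 1.5-fold as dotted lines. The members lie between 0.34 and 1.36, on the right side of the distribution.

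Other properties of the cells moved with this difference. The stress-inducible heat-shock genes Hspa1a and Hspa1b stood at 105 and 26.5 CPM in wild-type and at 424 and 124 CPM in knockout microglia. In cells without a UMI of either gene the summed level of the 10 was 1566 CPM in wild-type and 2322 CPM in knockout microglia, and 7 of 9 were past 1.5-fold on the relative scale, beside 15.02% of all measured genes in those cells. In 3982 wild-type and 2428 knockout microglia without a UMI of any neutrophil, erythroid, choroid plexus, NK cell or monocyte marker, 7 of 9 were again higher, with a median of 0.73, beside 14.1% of all measured genes in those cells.

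Depth per cell also differed between the libraries, and similar ratios were found within bands of depth. The ratio of summed CPM was 1.57 in cells of 500 to 2000 UMIs, 1.47 from 2000 to 4000, 1.51 from 4000 to 8000, 1.51 from 8000 to 16000 and 1.52 above. Gapdh ran from 2.04 to 2.40 over the bands, and Hk2 from 0.9703 to 1.12.

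**Figure D4:**
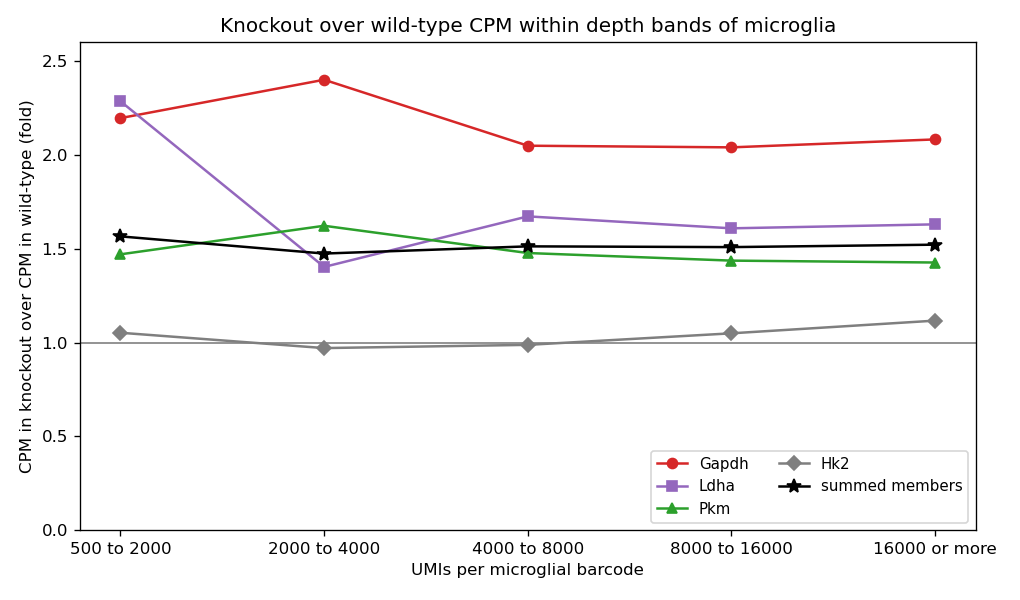
Ratio of knockout over wild-type CPM (vertical axis, linear from 0) in microglia split by UMIs per barcode (horizontal axis), for Gapdh, Ldha, Pkm, Hk2 and the sum of the 10 genes. The sum stays between 1.47 and 1.57 in all 5 bands, while Gapdh lies at or above 2.04 and Hk2 between 0.9703 and 1.12.

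Gene length moved with the ratios of all genes. Among genes at 50 CPM or more in wild-type microglia, the median relative log2 ratio was 0.57 for spans under 10 kb, 0.32 for 10 to 20 kb, 0.07 for 20 to 50 kb and -0.32 for longer genes. The share at least 1.5-fold higher went from 49.0% over 25.2% and 11.6% to 3.44%. Aldoa, Tpi1, Gapdh and Pgam1 lie in the shortest band, Pgk1 and Ldha in the next, Pfkl and Pkm in the third, and Hk2 in the longest. All 9 were above the median of their own band, by the least for Tpi1 and by the most for Gapdh. The part of gene length in the result was not tested.

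Detection per cell was compared at equal depth. Each cell was thinned to 2000 UMIs, which left 4898 wild-type and 4317 knockout cells. Among wild-type microglia 56.3% (54.9% to 57.7%) then had a Gapdh UMI, and among knockout microglia 78.7% (77.5% to 79.9%). For Ldha the shares were 21.9% and 31.7%. Hk2 was detected in 41.0% and 40.0%, with intervals that overlap. Without thinning the shares were 89.4% and 93.0% for Gapdh, 60.9% and 64.6% for Ldha, and 82.1% and 71.6% for Hk2.

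No class here should lack glycolysis as a whole, so no background share from free RNA could be measured for these genes. Pfkp had a UMI in 0.102% of wild-type and 0.208% of knockout microglia at the same depth. The median cell held 2 of the 10 genes in wild-type and 3 in knockout microglia. None of the 10 was detected in 5.27% of wild-type and 1.51% of knockout cells. The variance over the mean of thinned counts lay between 0.998 and 1.32 for single genes, where pure counting noise gives a ratio of 1, and for the sum it was 1.29 in wild-type and 1.61 in knockout microglia.

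The isoforms of a step were compared as shares of that step's UMIs, a measure that does not depend on the rest of the library. Among the hexokinases of microglia, Hk2 held 82.3% in wild-type and 85.2% in knockout, with Hk3 at 13.02% and 11.1% and Hk1 at 4.63% and 3.73%. Hk2 held less in monocytes, with 56.8% (39.5% to 72.9%) in wild-type and 56.3% (49.98% to 62.6%) in knockout. Among the phosphofructokinases, Pfkl held 95.6% and 95.2% in microglia. In monocytes Pfkp was the main form, with 64.2% (49.8% to 76.9%) and 57.8% (51.7% to 63.7%). In NK cells it held 58.8% (40.7% to 75.4%), an interval overlapping that of Pfkl at 38.2% (22.2% to 56.4%). Pfkl was the main form in microglia and Pfkp in monocytes, in both libraries.

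At the last step the forms also differed by class. Ldhb, the subunit that favours pyruvate, held 75.2% (74.7% to 75.7%) of lactate dehydrogenase UMIs in wild-type and 77.6% (77.1% to 78.0%) in knockout microglia. In monocytes it held 10.3% (4.84% to 18.7%) and 9.69% (8.17% to 11.4%), and in NK cells 7.08%. Microglia thus carried mostly Ldhb and monocytes mostly Ldha. In border macrophages Ldhb held 17.6% (3.80% to 43.4%) of 17 UMIs in wild-type, an interval overlapping that of monocytes. In knockout it held 40.3% (32.2% to 48.8%) of 144 UMIs, between monocytes and microglia. The part of microglial RNA in these shares was not tested. Eno3, the muscle-type enolase, held 16.0% and 15.8% in microglia and 41.1% and 54.4% in monocytes. Aldoa held at least 98.3% of aldolase UMIs in every class.

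**Figure D5:**
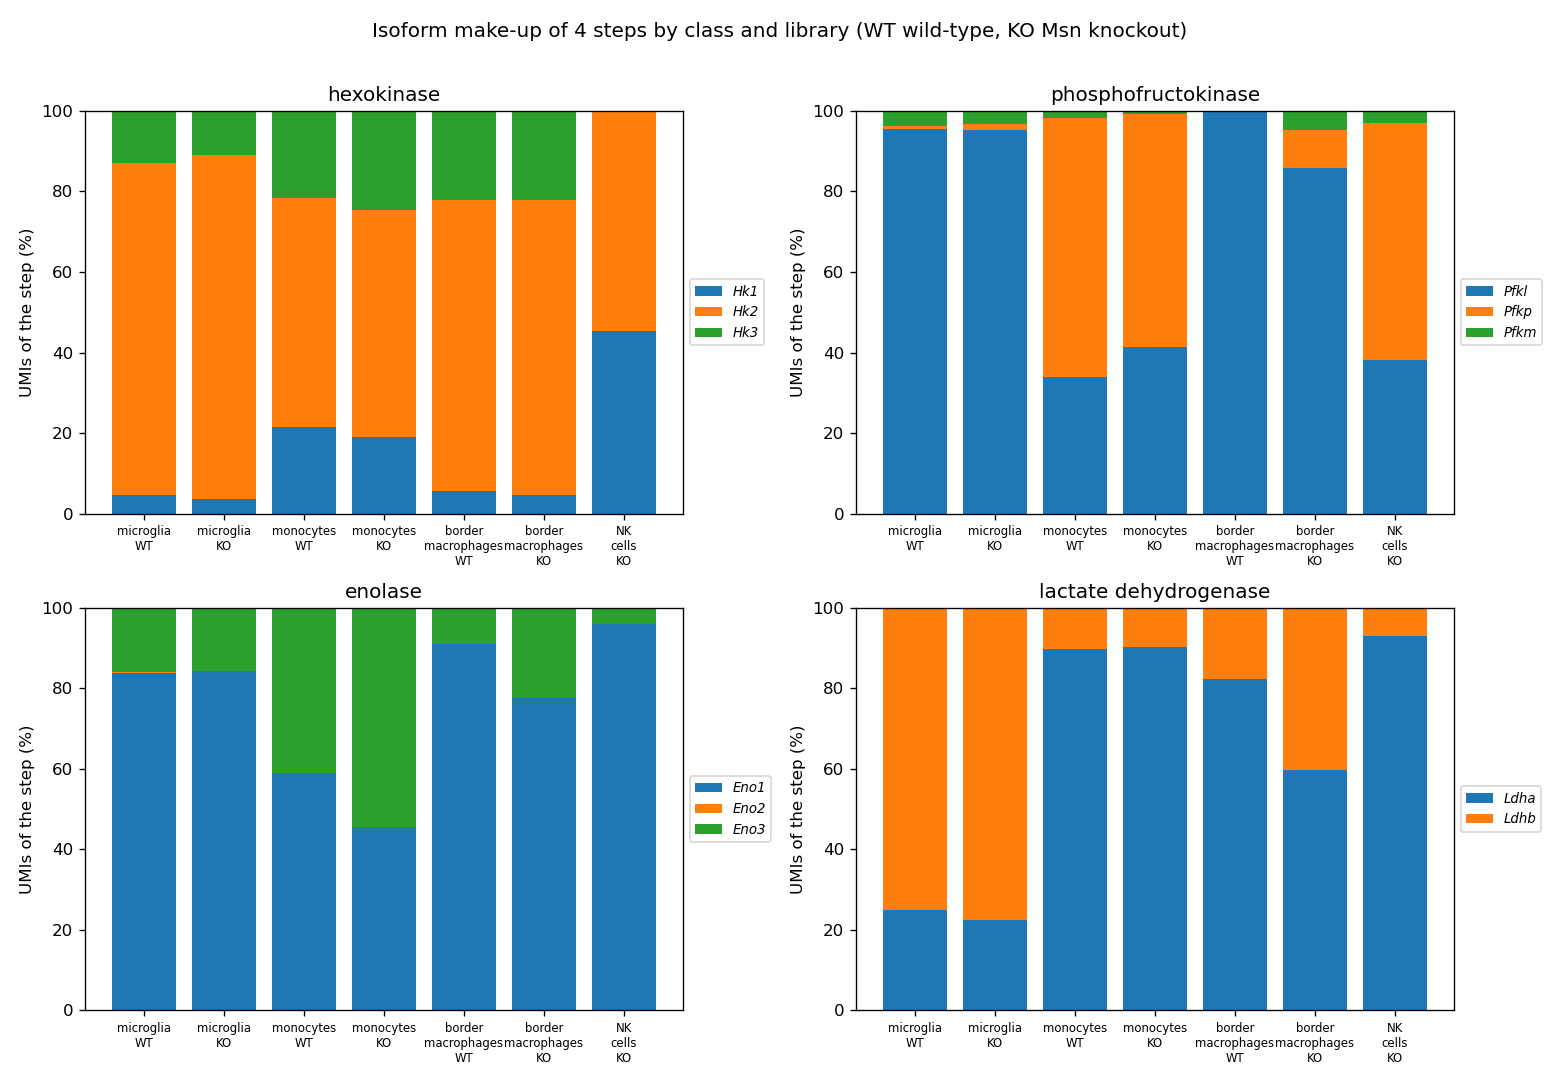
Share of the UMIs of a step held by each isoform (stacked bars, percent), for hexokinase, phosphofructokinase, enolase and lactate dehydrogenase, by class and library. Pfkp (orange) takes 57.8% to 64.2% of phosphofructokinase in monocytes and NK cells against 0.751% to 1.42% in microglia, and Ldhb (orange) takes 75.2% to 77.6% of lactate dehydrogenase in microglia.

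The next comparison set the other classes against microglia within a library. Levels and folds rest on CPM, while calls of higher or lower rest on the relative scale. Monocytes, blood-borne myeloid cells, carried more of most members, with summed levels of 2415 CPM (2260 to 2578) in wild-type and 4045 CPM (3977 to 4115) in knockout, 1.54-fold (1.44 to 1.64) and 1.70-fold (1.67 to 1.73) those of microglia. Of the 10, 7 were higher and 1 lower in wild-type monocytes, beside 32.7% and 33% of all measured genes. In the knockout library 8 were higher and 2 lower, beside 31.1% and 30.1%.

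Pgk1 was 3.14-fold (2.40 to 4.02) and 3.29-fold (3.04 to 3.56) the microglial CPM in wild-type and knockout monocytes. Pkm was 2.87-fold (2.46 to 3.33) and 2.95-fold (2.82 to 3.09). Pfkp was 157-fold (95.1 to 259) and 37.0-fold (26.7 to 52.1), since microglia had almost none. Hk2 went the other way, at 0.198 times (0.122 to 0.302) and 0.149 times (0.125 to 0.175) the microglial level. Pfkl was 0.654 times (0.387 to 1.03) in wild-type and 0.396 times (0.325 to 0.477) in knockout monocytes. On the relative scale Aldoa, Gapdh, Pgam1 and Ldha were also higher in monocytes of both libraries, and Tpi1 passed the limit in the knockout library. The median log2 ratio of all measured genes was -0.44 for wild-type monocytes over microglia. As plain CPM ratios there, Aldoa at 1.43 and Pgam1 at 1.4996 stayed under 1.5-fold.

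Border macrophages, which live in the meninges and around vessels, had the lowest sums, 1060 CPM (882 to 1263) in wild-type and 1740 CPM (1626 to 1859) in knockout, 0.675 times (0.561 to 0.804) and 0.731 times (0.683 to 0.781) microglia. In each library 0 of 9 measured members were higher and 3 lower, beside 29.4% and 29.6% of genes in wild-type and 21.1% and 21.7% in knockout. The count lower is near the share of all genes in wild-type, while the count higher is below that share in both libraries. With 9 members these counts are small. Hk2 was lower in both, at 0.388 and 0.540 times microglia. Their microglia markers summed to 3816 and 5133 CPM, above those in monocytes at 1340 and 1003 CPM, and the part of microglial RNA in these levels was not tested.

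The 44 NK cells, lymphocytes that kill infected or altered cells, were found in the knockout library. Their summed level was 2510 CPM (2303 to 2731), 1.055-fold (0.967 to 1.15) that of microglia. Of the 10, 5 were higher (Pfkp, Pgk1, Pgam1, Pkm and Ldha) and 1, Hk2, was lower, beside 33.4% and 35.7% of all measured genes. Ldha stood at 489 CPM (400 to 592), 2.50-fold (2.04 to 3.03) microglia with an interval overlapping that of knockout monocytes at 380 CPM (359 to 402). Hk2 stood at 27.9 CPM (10.3 to 60.8), from 6 UMIs, an interval that overlaps those of monocytes in both libraries.

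The same genotypes were then compared within monocytes. Of the 10, 7 were at least 1.5-fold higher and 1 lower in knockout monocytes on the relative scale, beside 20.4% and 22.8% of 7856 measured genes. As plain CPM ratios 5 were higher and 1 lower, beside 12.2% and 31.5%. The 7 were Aldoa, Tpi1, Gapdh, Pgk1, Pgam1, Pkm and Ldha, and the median over the 10 was 0.80. Gapdh stood at 770 CPM in wild-type and 1620 CPM in knockout monocytes, a relative log2 ratio of 1.29 (1.12 to 1.47). Pgam1 stood at 152 and 298 CPM (1.18, 0.80 to 1.60) and Ldha at 209 and 380 CPM (1.08, 0.75 to 1.43).

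Aldoa, Pgk1, Pkm and Tpi1 had relative log2 ratios of 0.71 to 0.83 in monocytes, each with an interval above 0. Hk2 and Pfkl were low in both libraries, at 56.2 and 43.5 CPM and at 48.1 and 34.9 CPM, with intervals of the ratio that span 0. Pfkp went the other way, at 90.9 CPM (63.0 to 127) in wild-type and 48.7 CPM (41.4 to 56.9) in knockout, a relative log2 ratio of -0.68 (-1.22 to -0.10). It rested on 34 wild-type UMIs, and it became -0.07 when barcodes that also met the microglia gate were counted in.

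The monocytes of the libraries were not of like make-up. In wild-type, 19 cells had Ace and no Ly6c2, 21 had Ly6c2 and no Ace, and 8 had both, against 282, 108 and 152 in knockout. The summed neutrophil markers reached 8014 CPM in knockout cells with Ly6c2 alone, 18.5 CPM in those with Ace alone and 93.4 CPM in wild-type cells with Ly6c2 alone. The summed level of the 10 genes was 4136 CPM in the knockout cells with Ly6c2 alone, 4124 CPM in those with Ace alone and 3855 CPM in those with both. In wild-type the 3 kinds stood at 2231, 2701 and 2524 CPM in that order, each below every knockout kind. Within cells with Ace alone, 4 of 10 (Gapdh, Pgam1, Ldha and Pkm) were at least 1.5-fold higher and 0 lower, from 19 wild-type cells, beside 28.2% and 29.0% of all genes measured in those cells, and Aldoa, Tpi1 and Pgk1 stood at 0.41 to 0.45. Choroid plexus markers, at 0 in wild-type monocytes, summed to 688 CPM in knockout monocytes, and their part in the result was not tested.

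In border macrophages 6 of 9 measured members were higher and 0 lower in knockout, beside 29.5% and 31% of 8689 measured genes. As plain CPM ratios 3 were higher and 0 lower, beside 24.3% and 35.2%. The intervals left out 0 for Gapdh (331 and 657 CPM, 1.14, 0.66 to 1.66), for Pkm (84.8 and 200.2 CPM, 1.39, 0.45 to 2.49) and for Pgk1 (2 and 37 UMIs, 2.28, 0.32 to 5.38). For Hk2, Aldoa and Ldha, also past 1.5-fold, they did not. Pfkp had 0 UMIs in wild-type, which allows up to 25.4 CPM (the level of 3 UMIs), and 2 UMIs in knockout, so no fold is given. The CPM ratio of Gapdh was 2.08 in microglia, 2.10 in monocytes and 1.99 in border macrophages; the difference between classes was not tested.

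Genes around the pathway were read from lists of enzymes, transporters and regulators. All counts of these lists stand beside 15.4% of measured genes higher and 12.5% lower in microglia on the relative scale. As plain CPM ratios they stand beside 4.83% and 30.6%. These shares take in genes of all lengths, and the part of gene length in the lists was not tested. Of 18 other enzymes and isoforms of the pathway, 6 were measured in microglia, 4 higher and 0 lower on the relative scale, and 3 and 0 as plain CPM ratios. Ldhb stood at 365 CPM in wild-type and 678 CPM in knockout (1.19), Eno1, the main enolase, at 94.1 and 157 CPM (1.04), Eno3 at 17.9 and 29.5 CPM (1.01) and Gpi1, which isomerises glucose 6-phosphate, at 83.7 and 115 CPM (0.76). Hk1 at -0.02 and Hk3 at 0.06 were within 1.5-fold. Hk2 was within it too, as given above.

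Of 8 regulators of flux, 2 were measured, 0 higher and 1 lower (0 and 2 as plain CPM ratios). Pfkfb3, the kinase that makes the activator of phosphofructokinase, stood at 103 CPM in wild-type and 44.6 CPM in knockout microglia, a relative log2 ratio of -0.91 (-0.99 to -0.83), and Pfkfb4 at -0.40. Of 9 transporters, 7 were measured, 1 higher and 1 lower (0 and 2 as plain CPM ratios), which is near the share of all genes. Bsg, the chaperone of lactate transporters, was higher (451 and 613 CPM, 0.74), and Slc16a7, a monocarboxylate transporter, was lower (36.1 and 17.1 CPM, -0.78). Slc2a5, the fructose transporter typical of microglia, stood at 372 and 285 CPM (-0.08).

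Of 13 genes on the fate of pyruvate, 8 were measured, 2 higher and 0 lower, and as plain CPM ratios 0 higher and 2 lower. On the relative scale both subunits of the mitochondrial pyruvate carrier were higher, Mpc1 at 0.72 and Mpc2 at 0.61, while Pdk1, the kinase that shuts pyruvate dehydrogenase, stood at 71.9 and 40.2 CPM (-0.54). In the pentose phosphate pathway, a side branch that makes NADPH, all 7 were measured, 2 higher and 0 lower (1 and 0 as plain CPM ratios). Those were Pgls at 1.13 and Taldo1 at 0.76, while G6pdx, which opens the branch, stood at -0.26.

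Of 9 genes of the HIF pathway, 6 were measured, 1 higher and 0 lower (0 and 0 as plain CPM ratios), which is near the share of all genes. Hif1a itself stood at 107 and 100.1 CPM (0.20), and Egln2, a prolyl hydroxylase that marks HIF for breakdown, was higher at 0.69. Of 15 HIF targets outside glycolysis, 9 were measured, 5 higher and 0 lower, with a median of 0.67. Ddit4, a stress-induced inhibitor of mTORC1, differed most, from 26.9 to 97.3 CPM (2.15), followed by Higd1a (0.89) and Bnip3 (0.81), both mitochondrial proteins. Kdm3a, a histone demethylase on the same list, stood at -0.51. Of 12 genes of mTORC1, AMPK and Myc, all were measured, 1 higher (Prkag1, 0.64) and 2 lower (Mtor, -0.69, and Tsc1, -0.64). As plain CPM ratios the HIF target list had 2 higher and 1 lower, and the mTORC1, AMPK and Myc list 0 higher and 6 lower.

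Several members have processed copies in the genome, which can take or void reads. Over the last 300 bases of the main transcript, Gapdh matched 36 other places at 97% identity or more over at least 90 bases, Pgk1 4, Pgam1 3 and Tpi1 1, while the other 6 members matched none. Rows named as pseudogenes or related copies of members held 14 wild-type and 7 knockout UMIs in all. The members held 107761 and 167941 UMIs over all barcodes. Copies listed under other symbols were not summed. Levels of Gapdh, Pgk1, Pgam1 and Tpi1 are uncertain to the extent that reads matching several places were dropped.

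The genes whose profile was most like the sum of the 10 were sought over the 7 profiles of class and library with at least 20 cells, among 2843 genes at 100 CPM or more in 1 profile. By Pearson correlation of log2(CPM + 1), these were Akt1 (0.987), Ufc1 (0.976), Psmd8 (0.969), Anapc16 (0.966) and Vdac3 (0.963). Akt1, a kinase of insulin signalling, stood at 61.9, 88.2 and 42.4 CPM in wild-type microglia, monocytes and border macrophages, and at 85.8, 150.2 and 76.1 CPM in those of the knockout. The profiles share libraries and depth, and the correlation is a description.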

How the data were processed

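The data are 10x Genomics 3′ single-cell libraries of sorted CD45+CD11b+ cells, 1 per genotype. The deposited matrices hold UMI counts per gene and barcode, made by the authors with Cell Ranger 7.0.0, per the file headers, where the labels' protocols name version 6.0 and build GRCm39. A Seurat filter on barcodes under 500 genes is named in the labels' protocols, yet barcodes below it are in the deposited files.

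Barcodes with 500 genes or more and a mitochondrial share of UMIs up to 10% were kept. Gates needed 1 UMI of each gene, or 2 UMIs over Ace and Ly6c2 for monocytes. Doublets were not called, and barcodes meeting more than 1 gate were left out. Gated classes under 20 cells were not reported, while the split of monocytes by Ace and Ly6c2 gave wild-type kinds of 19 and 8 cells. UMIs were summed per class and library, with exact Poisson, binomial and conditional binomial intervals at 95%. Measured genes had 10 CPM or more in 1 of the libraries compared. Detection shares used cells thinned to 2000 UMIs without replacement. Library totals were 68576464 and 67575835 UMIs.

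Named genes were all 10 members and, of each other list, at most the 3 highest and 3 lowest by ratio in microglia, the isoforms of a step, Msn, and the 5 genes most like the summed members. Hspa1a and Hspa1b were named for the alternative that leaves out cells with them. The result of 1 list is not reported here. The members and lists were chosen with earlier results of these data known. Alternatives changed the barcode filters, gates, thinning, scaling and cell subsets; 3 of them were chosen after seeing the data. Python 3.11.15, numpy 2.4.6, scipy 1.17.1, pandas 2.3.3 and BLAST 2.17.0 were used, with GENCODE coordinates on GRCm39. The calculation was tested on simulated data.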

Additional observations from a re-analysis of the deposited data

How the results depend on the processing

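In microglia, 16 alternatives were run. The count of members at least 1.5-fold higher was 7 in the main setting, 2 on the CPM scale and 2 relative to genes at 100 CPM or more in both libraries, whose median log2 ratio was -0.02; the CPM ratios of all members lie lower than the relative ones by construction. In the other 14 alternatives it was 6 to 9, and the count lower was 0 in all 16. Gapdh and Ldha were past 1.5-fold in 16 of 16, Pgk1, Pgam1 and Pkm in 14, Aldoa and Tpi1 in 12, Pfkl in 2 and Hk2 in 0. Each of these 9 genes had a log2 ratio above 0, on the scale of the alternative, in 16 of 16. As plain CPM ratios, those of Hk2 were 0.9703 in cells of 2000 to 4000 UMIs and 0.987 in cells of 4000 to 8000 UMIs. In cells without Hspa1a or Hspa1b UMIs the CPM of Hk2 was also lower in knockout. Pfkp, at under 2 CPM, ran from -1.55 (cells without markers of other cells) to 2.11. It was counted as measured, and higher at 1.61, relative to all genes with 1 UMI in each library, the alternative with 9.

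In monocytes the count lower was 1 in the main setting, beside 22.8% of all measured genes. It was 0 with barcodes that also met the microglia gate counted in, beside 18.0%. Among cells with Ace and no Ly6c2, 4 higher and 0 lower were counted, beside 28.2% and 29.0%. The summed level of knockout monocytes over microglia was 1.73 after thinning, against 1.70. The cause of these differences was not tested. No member called in the main setting changed sign under the alternatives run. Wild-type monocytes and border macrophages, with 48 and 25 cells, limit what can be told there. No paired analysis was possible because each genotype has 1 library, and for the same reason no library could be left out.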

Other observations

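Barcodes outside the classes carried the same genes. Mixed barcodes, with medians of 22661 UMIs in wild-type and 15114 UMIs in knockout, had summed levels of 1529 CPM (1500 to 1558) and 2439 CPM (2419 to 2459). Their Gapdh stood at 411 and 927 CPM and their Hk2 at 271 and 304 CPM. Most met the gates of microglia and border macrophages together, 194 of 241 in wild-type and 586 of 1066 in knockout.

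Barcodes that met no gate, 229 in wild-type and 1122 in knockout, had 1769 CPM (1644 to 1901) and 3067 CPM (2994 to 3142). Pfkp stood there at 35.8 and 41.0 CPM, above its level in microglia. The 1463 knockout barcodes under 500 genes had 1529 CPM (1455 to 1607), with Hk2 at 546 CPM and Gapdh at 317 CPM. The 207 wild-type barcodes under 500 genes had Hk2 at 391 CPM and Gapdh at 303 CPM, with overlapping intervals.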
